A study of Mus musculus with 12 samples.

Results

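Spleen RNA of mice given busulfan together with L.J. was compared with spleen RNA of mice given busulfan alone, in 3 libraries each. All animals were ICR mice, an outbred stock, 8 weeks old. The groups were busulfan plus L.J. at 10 mg/kg, busulfan, L.J. at 10 mg/kg and an untreated control, with 3 libraries in each of the 4 groups. L.J. is not spelled out in the labels, which give neither the dose of busulfan, nor the time of collection, nor whether each library of a group is from its own animal, so that p-values measure the spread between these libraries. The title of the series asks about a rescue by L.J. from harm of busulfan to the spleen, and its description also speaks of FMT, which no sample label names. A gene entered the comparison when its mean reached 1 FPKM in at least 1 of both groups compared. FPKM is the fragment number of a gene per unit of gene length and relative to all fragments of its library. Of the 21004 genes in the table, 12800 met the rule, and 13138 were tested across the series. At the edge of the rule, Frs3 was just inside with a higher group mean of 1.0 FPKM and Syt1 just outside with 0.997 FPKM.

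Busulfan is an alkylating drug that crosslinks DNA, kills dividing cells and empties the bone marrow. The mouse spleen filters blood through sinusoids in its red pulp, houses lymphocytes in its white pulp and, unlike the adult human spleen, still makes red cells and granulocytes, so that its RNA is a mixture of many cell types. In bulk tissue fewer cells of a type and less RNA per cell cannot be told apart. PPAR receptors are nuclear receptors activated by fatty acids, and their targets carry fatty acids into cells and mitochondria and burn them there. Cells that make many secreted proteins rely on the translocon, which threads new chains into the endoplasmic reticulum (ER), and on ER chaperones, whose genes are switched on by the unfolded protein response when the ER is overloaded.

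Busulfan libraries 1 and 2 stood apart before any comparison. The score of 46 pancreatic acinar genes is their mean log2(FPKM + 1) in a library. It was 0.44, 0.29 and 1.81 in the libraries with both agents and 7.56, 4.55 and 1.69 in those with busulfan. Neutrophil genes were high in busulfan libraries 1 and 2 as well. A further library, number 3 of L.J. alone, had an acinar score of 5.05. Results are therefore also given without these 3 libraries, a fit that leaves a single busulfan library.

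Adding L.J. to busulfan was accompanied by higher transcripts of some PPAR targets of fatty acid handling and of some sinusoid, vessel wall and matrix genes. Lower transcripts were those of some eosinophil and neutrophil granule proteins and of some genes of the ER. The latter were ER stress genes, the chaperone Calr and genes that handle new chains on entry into the ER. In all, 218 of the 12800 genes passed the threshold of an adjusted p of 0.05 in limma, which is 1.7%. Of these, 142 rose (1.08% of the genes tested) and 76 fell (0.578%). The median log2 difference was 0.66 among the genes that rose and -0.79 among those that fell, beside 0.048 over all genes tested. Only 16 of the risen and 26 of the fallen genes differed by at least 1 on the log2 scale. The 2 groups did not overlap in any of the 218 genes, and they did not overlap in 23.1% of all genes tested. An unadjusted limma p below 0.05 was found for 3046 genes (23.2%). Of the 234 genes that reached 1 FPKM only with both agents, 5 rose, and of the 355 that reached it only with busulfan, 10 fell. The rule of entry largely sets the direction of such genes, and 1.7% of all 12800 genes were called, so these counts are no result about them.

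The number of calls depended on single libraries and on the fit. It was 0 with only the 6 libraries compared, where 2071 genes had an unadjusted limma p below 0.05, and 0 with the acinar score as a covariate, where 2303 did. Leaving out library 1, 2 or 3 with both agents left 2, 2 or 7 calls, and leaving out busulfan library 1, 2 or 3 gave 715, 50 or 1354. Without library 1, 2 or 3 of L.J. alone there were 163, 18 or 23, and without control library 1, 2 or 3 there were 18, 28 or 34. The split between directions moved with the scaling. Where 65.1% of the calls were higher on the deposited scale, 39.9% of 293 were with median of ratios scaling and 43.4% of 53 when pancreatic genes were left out and the libraries scaled to equal sums. Under these scalings, quantile normalization and equal FPKM sums the median log2 difference of all genes lay between -0.019 and 0.04, below the 0.048 of the deposited scale.

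**Figure D1:**
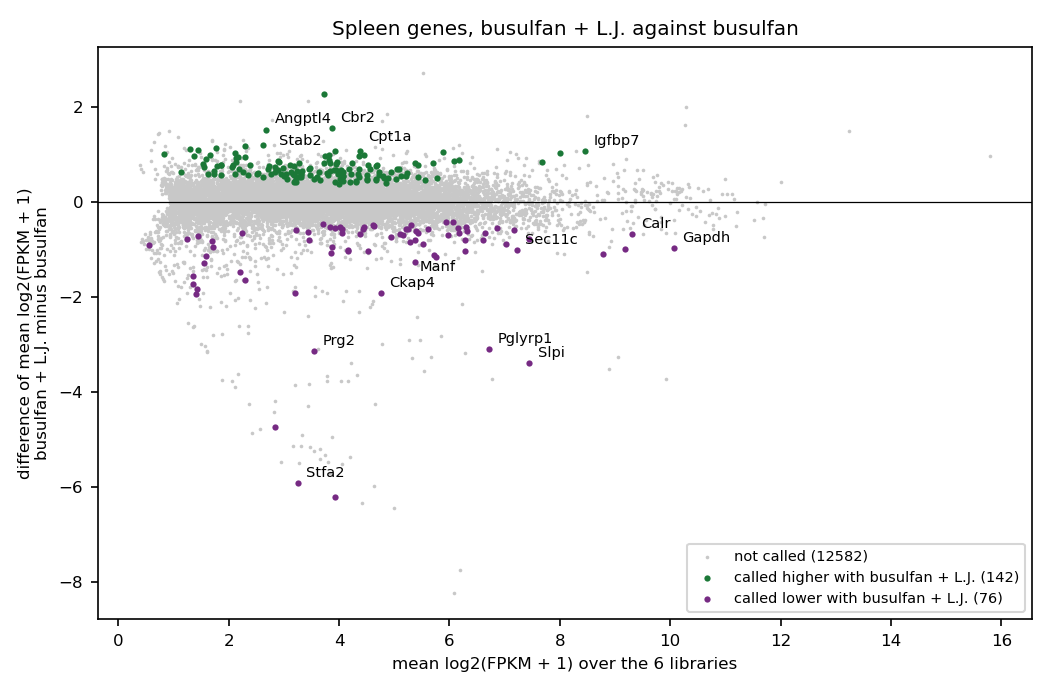
Each point is 1 of the 12800 genes, placed by its mean log2(FPKM + 1) over the 6 libraries and by the log2 difference between busulfan plus L.J. and busulfan alone. The 142 genes called higher are green, the 76 called lower are purple, and several of the largest negative differences, in grey, were not called.

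Angptl4 and Cpt1a, both PPAR targets, gave the smallest adjusted p. Angptl4, which blocks lipoprotein lipase outside the cell (chromosome 17, 33774900 to 33781575), stood at 9.44, 10.4 and 9.84 FPKM with both agents, against 2.27, 3.05 and 3.03 FPKM with busulfan. The lowest library with both agents was above the highest busulfan library by a wide margin, with a difference of 1.53 on the log2 scale (SE 0.13, limma adjusted p = 0.00135). Cpt1a, the carnitine palmitoyltransferase that lets long-chain fatty acids enter mitochondria (chromosome 19, 3322326 to 3385735), stood at 29.1, 27.0 and 31.4 FPKM with both agents, against 13.02, 12.2 and 14.7 FPKM with busulfan. Its groups did not overlap either, with a difference of 1.08 on that scale (SE 0.10, limma adjusted p = 0.00192). Angptl4 and Cpt1a were the only genes still called when library 1 or library 2 with both agents was left out, and each was called in 24 of 27 alternative fits. Both missed the threshold with only the 6 libraries compared, with the acinar covariate and without the 3 libraries of highest acinar score, with limma adjusted p of at most 0.0853 for Angptl4 and 0.1 for Cpt1a.

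Transport steps on either side of Cpt1a rose as well. Cd36, the fatty acid translocase of the cell surface, had 89.3, 105 and 96.9 FPKM with both agents and 42.0, 58.9 and 55.9 FPKM with busulfan (log2 difference 0.89, SE 0.15, limma adjusted p = 0.0372). Slc25a20, the carnitine and acylcarnitine carrier of the inner mitochondrial membrane, had 11.8, 10.1 and 10.6 FPKM with both agents and 8.15, 5.27 and 6.16 FPKM with busulfan (0.67, limma adjusted p = 0.0437). Abca1, which exports cholesterol, rose by 0.52. In none of these genes did the groups overlap. Of 26 tested PPAR targets 4 rose and none fell, 23 had a positive difference, beside 56.9% of all genes tested, and the median was 0.27. The oxidation enzymes Acadm, Acadl, Acadvl and Hadha of this list were not called. Among members outside the calls, Pdk4, a kinase that shuts pyruvate out of the mitochondrion and a common PPAR target, overlapped, with 2.24, 2.46 and 7.64 FPKM against 4.13, 5.99 and 1.94 FPKM (log2 difference -0.04). Fat cell markers varied within both groups. Adipoq, the fat cell hormone adiponectin, stood at 0.95, 8.11 and 6.47 FPKM with both agents and at 0.38, 4.47 and 0.15 FPKM with busulfan, so that the groups overlapped. The classical PPAR element is AGGTCA repeated after any 1 letter. It was searched on both strands of promoter windows reaching from 250 bases before to 50 bases after the gene start. The element was in 0.0396% of all 32851 windows and in none of those of the 20 PPAR targets with an entry. Angptl4 had no entry. An element this rare would seldom be met in any 20 windows, and sites elsewhere in a gene were not searched. The search therefore cannot decide whether these genes carry PPAR elements.

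Some endothelial genes, among them genes of the splenic sinusoids, rose. Stab2, a scavenger receptor of sinusoidal endothelium that takes up hyaluronan, stood at 20.4, 16.8 and 19.9 FPKM with both agents, against 8.71, 11.2 and 7.48 FPKM with busulfan (log2 difference 0.99, SE 0.14, limma adjusted p = 0.0197). Tek, the angiopoietin receptor, had 4.91, 5.26 and 4.99 FPKM against 2.20, 2.95 and 1.5 FPKM, a difference of 0.94. Of 43 tested endothelial genes, 5 rose and none fell, namely Stab2, Tek, the related scavenger receptor Stab1 (0.86), the VEGF receptor Kdr (0.76) and the vessel wall multimerin Mmrn2 (0.58), and 38 had a positive difference. The median of the list was 0.43, and it lay between 0.28 and 0.48 when each busulfan library was left out. Notch2 (0.59), a receptor that splenic marginal zone B cells require, and the semaphorins Sema3d (1.18) and Sema4b (0.48), guidance molecules for axons and vessels, also rose, with 1 call of 19 genes in the VEGF and Notch list and 3 of 24 in the semaphorin list. By list score, endothelial genes stood at 3.35, 3.26 and 3.49 with both agents and at 3.01, 3.18 and 2.79 with busulfan, so that busulfan library 3 was the lowest.

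Matrix genes changed in the same direction. Col14a1, a collagen that binds to the surface of fibrils, stood at 27.5, 29.5 and 26.4 FPKM with both agents, against 11.5, 14.3 and 15.5 FPKM with busulfan (0.97, SE 0.12, limma adjusted p = 0.0135). Igfbp7, a secreted protein of vascular matrix, stood at 537.6, 468.3 and 530.0 FPKM against 253.2, 249.8 and 221.8 FPKM (1.08, SE 0.14, limma adjusted p = 0.0152), and Gucy1a1, part of the soluble guanylate cyclase that senses nitric oxide in smooth muscle, at 16.1, 18.5 and 15.2 FPKM against 8.23, 9.22 and 9.42 FPKM (0.82, limma adjusted p = 0.0152). All 3 libraries with both agents lay clearly above all busulfan libraries in each of these. Of 37 tested collagen, laminin and matrix genes 7 rose and none fell, with a median of 0.36. These were Col14a1, the basement membrane genes Col4a1 (0.76) and Nid2 (0.65), the fibrillar collagens Col3a1 (1.00) and Col1a2 (0.64), and the elastic fibre genes Fbln5 (0.58) and Fbn1 (0.60). Tcf21, a transcription factor of splenic stroma, rose by 0.78 as the single call among 17 reticular stromal genes, and Synpo2, an actin-binding protein of smooth muscle, by 0.64 as the single call among 16 contractile genes, of which 10 had a positive and 6 a negative difference. Itga1, the collagen receptor integrin alpha 1 (0.73), P3h2, a prolyl hydroxylase of basement membrane collagen (0.87), and Hs6st2, a heparan sulfate sulfotransferase (0.97), which are in no list, rose too. Igfbp7 was the only call among 10 IGF and IGFBP genes, whose median of 0.05 changed sign under 2 of the scalings.

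**Figure D2:**
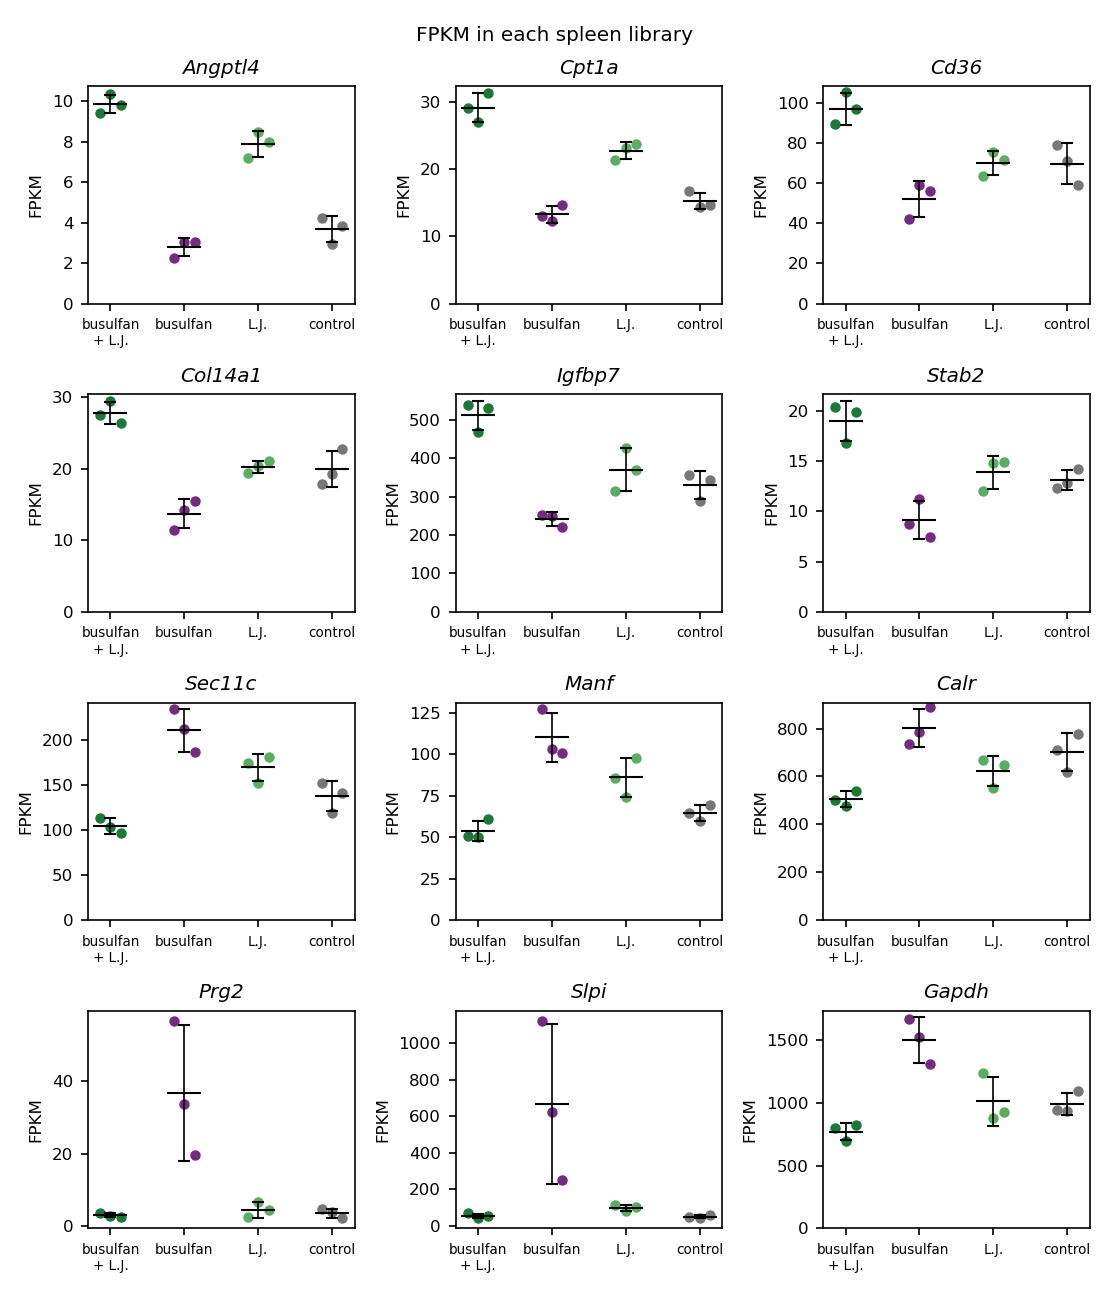
FPKM of 12 named genes in each of the 12 spleen libraries, by group, with a bar at the group mean and whiskers of 1 SD (n = 3). Angptl4 stands between 9.44 and 10.4 FPKM in the libraries with both agents and no higher than 3.05 FPKM in those with busulfan, whereas Slpi spreads from 253.1 to 1123 FPKM among the busulfan libraries.

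Genes of the secretory pathway fell, from entry into the ER to folding there. Sec11c, a catalytic subunit of the signal peptidase that trims new secretory chains, stood at 113.3, 103.4 and 96.3 FPKM with both agents, against 233.9, 211.8 and 186.3 FPKM with busulfan (-1.003, SE 0.13, limma adjusted p = 0.0164). Manf, a protein that ER stress induces and that cells secrete, stood at 50.8, 50.3 and 60.9 FPKM against 127.3, 103.0 and 100.6 FPKM (-1.01, SE 0.14, limma adjusted p = 0.0164). The chaperone calreticulin, Calr, stood at 499.8, 476.3 and 540.6 FPKM against 735.4, 784.7 and 888.4 FPKM (-0.66, limma adjusted p = 0.0396). These 3 genes had similar values within each group, with no busulfan library near the range of the libraries with both agents.

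In the list of 40 ER chaperone and unfolded protein response genes 4 fell and none rose, 36 had a negative difference and the median was -0.42. The groups did not overlap, with both agents lower, in 22 of the 40, beside 9% of all genes tested. Besides Manf and Calr, the falls were those of Creld2, another ER stress gene (-1.15), and of Ckap4, a membrane protein that anchors ER sheets to microtubules (-1.92). Ckap4 spread more than the others, with 15.04, 11.6 and 12.3 FPKM with both agents and 89.6, 62.1 and 24.2 FPKM with busulfan. Hspa5, the central ER chaperone BiP, stood at 275.9, 264.1 and 287.2 FPKM with both agents and at 354.0, 350.9 and 440.8 FPKM with busulfan (-0.46, limma adjusted p = 0.0941). Among 40 translocon, signal peptidase and glycosylation genes 5 fell, with a median of -0.27 and again 22 without overlap. They were Sec11c, the oligosaccharyltransferase subunit Krtcap2 (-0.79), the translocating chain protein Tram1 (-0.41) and the signal recognition particle subunits Srp9 (-0.57) and Srp19 (-0.41). Tmed2 (-0.58) and Kdelr1 (-0.59), which sort cargo and retrieve ER proteins between ER and Golgi, fell among 39 transport genes, and Atf5, a transcription factor translated under stress, fell by 1.26 among 24 genes of the PERK branch.

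Plasma cells, the antibody-secreting cells of the spleen, are rich in ER, and their markers were lower together with the ER genes. Of 19 tested plasma cell genes, 6 of which are also in the ER list, 17 had a negative difference, while 56.9% of all genes tested had a positive one. Of the 19, 14 were lower without overlap, beside 9% of all genes tested. The median was -0.58. The summed level of the list ran from 876.09 to 1011.49 FPKM with both agents and from 1247.09 to 1949.01 FPKM with busulfan. Its 2 calls, Prg2 and Creld2, also stand in the eosinophil and the ER list. Jchain, the joining chain of secreted antibodies, named after its values were seen, stood at 398.7, 316.6 and 320.9 FPKM with both agents, against 779.6, 722.4 and 509.3 FPKM with busulfan (-0.94, limma adjusted p = 0.1745). By list score, plasma cell genes stood at 4.67, 4.43 and 4.51 with both agents and at 5.49, 5.18 and 5.03 with busulfan. Library 3 of L.J. alone was high in both lists, with 5.46 for plasma cell and 5.94 for ER genes, beside at most 4.69 and 5.54 in the other libraries of L.J. alone. Adjusting for the acinar score brought the plasma cell median to -0.15, and leaving out the 3 libraries in which that score was highest brought it to -0.48. What part plasma cells had in the lower ER transcripts was not tested.

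The ER stress response element, CCAAT followed by any 9 letters and CCACG, is bound by ATF6 in mammalian chaperone promoters. It was searched on both strands of RefSeq promoter windows of build GRCm38.p6, each 300 bases long and reaching from 250 bases before to 50 bases after the start of the gene. Calr and Creld2 are the fallen ER genes whose windows held it. The window of Ckap4 did not hold it, and Manf had no entry and was not searched. Hspa5 is shown beside Calr and Creld2 as the best known chaperone of this response. The 250 bases before the start are printed 5′ to 3′ along the strand of the gene, with the conserved letters of the element in capitals. The element begins 162 bases before the start in Calr (chr8:84846932-84847181, minus strand) and 126 bases before it in Creld2 (chr15:88819396-88819645, plus strand), in both on the opposite strand, and 65 bases before it in Hspa5 (chr2:34771840-34772089, plus strand), on the strand of the gene.
Calr: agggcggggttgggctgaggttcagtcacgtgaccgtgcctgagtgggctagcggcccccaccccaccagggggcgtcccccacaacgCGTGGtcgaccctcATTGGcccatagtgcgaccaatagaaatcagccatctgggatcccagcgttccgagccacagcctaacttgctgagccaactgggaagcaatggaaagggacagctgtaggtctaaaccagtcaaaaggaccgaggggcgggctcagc
Creld2: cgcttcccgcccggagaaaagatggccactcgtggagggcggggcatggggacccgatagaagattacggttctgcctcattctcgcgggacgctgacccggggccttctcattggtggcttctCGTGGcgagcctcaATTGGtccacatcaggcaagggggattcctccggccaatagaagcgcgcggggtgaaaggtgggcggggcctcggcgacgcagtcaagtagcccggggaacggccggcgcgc
Hspa5: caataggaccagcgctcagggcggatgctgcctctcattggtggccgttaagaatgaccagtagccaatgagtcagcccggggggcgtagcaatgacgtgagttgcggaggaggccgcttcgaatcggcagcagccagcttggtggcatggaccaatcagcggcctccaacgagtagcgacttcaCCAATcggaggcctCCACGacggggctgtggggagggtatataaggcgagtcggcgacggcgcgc

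The element was in 39 of the 32851 windows (0.119%) and in those of 20 of the 10466 tested genes with an entry (0.191%). Among these 20 genes, 10 belonged to the ER list, in which 35 of 40 genes had an entry. A negative difference was found in 16 of the 20, beside 43.1% of the 10466, and the median was -0.37, beside 0.046. All 10 genes of the ER list were among these 16, with a median of -0.46, so that they restate that list, and 6 of the 10 genes outside it were negative, with a median of -0.22. Calr and Creld2 fell and Adcy3, an adenylate cyclase named here after its value was seen, rose by 0.60. Hsp90b1, the ER paralogue of HSP90, had the element too, with 378.0, 348.9 and 365.9 FPKM with both agents and 594.0, 578.2 and 771.0 FPKM with busulfan (limma adjusted p = 0.0541). Derl3, a component of ER-associated degradation, had it as well, with 15.4, 11.9 and 12.4 FPKM against 47.1, 33.2 and 29.1 FPKM (limma adjusted p = 0.0586). Neither gene overlapped between the groups, and both were chosen after their values were seen. The windows of Creld2 and Alg12, a mannosyltransferase on the other strand, overlap on chromosome 15 and share this element, and Alg12 differed by -0.31 with overlapping groups. The Xlr3 genes among the 20 are near-identical copies, so their values are uncertain.

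Transcripts of eosinophil granule proteins fell. Prg2, the eosinophil major basic protein, stood at 3.68, 2.66 and 2.54 FPKM with both agents, against 56.9, 33.8 and 19.7 FPKM with busulfan (-3.14, SE 0.38, limma adjusted p = 0.0135). Epx, eosinophil peroxidase, stood at 0.53, 0.39 and 0.20 FPKM against 8.82, 3.88 and 1.93 FPKM (-1.93, limma adjusted p = 0.0377). Ear6, an eosinophil ribonuclease with close paralogues, stood at 0.35, 0.25 and 0.74 FPKM against 6.03, 3.95 and 2.71 FPKM (-1.82, limma adjusted p = 0.0193). In these 3 genes busulfan library 3 was the lowest of its group and still above every library with both agents. Epx and Ear6 reached 1 FPKM only with busulfan, so the rule of entry largely set their direction. The other 9 of 12 tested eosinophil genes did not pass. Of the 12 genes 9 had a negative difference, the median was -0.81, and 5 were lower without overlap, beside 9% of all genes tested. Among the 3 with a positive difference were a pair of surface receptors of mature eosinophils, named after their values were seen, whose groups overlapped. Ccr3, the eotaxin receptor, had 12.6, 18.7 and 9.67 FPKM with both agents and 9.13, 18.8 and 11.1 FPKM with busulfan, and Il5ra, the interleukin 5 receptor, had 3.72, 3.14 and 2.08 FPKM against 2.03, 1.97 and 4.83 FPKM. Their log2 differences were 0.08 and 0.07.

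Neutrophil granule genes differed more widely, and few passed, since busulfan libraries 1 and 2 were far above library 3. Slpi, an inhibitor of neutrophil serine proteases, stood at 67.8, 43.1 and 50.9 FPKM with both agents, against 1123, 624.0 and 253.1 FPKM with busulfan (-3.38, SE 0.42, limma adjusted p = 0.0135). Its SD was 436.3 FPKM with busulfan and 12.7, 15.9 and 9.6 FPKM with both agents, with L.J. alone and in controls. The fit takes 1 spread for all groups, so this p understates the spread with busulfan. Pglyrp1, a bactericidal protein of granules, stood at 40.1, 32.9 and 32.8 FPKM against 744.7, 418.8 and 92.5 FPKM (-3.10, SE 0.56, limma adjusted p = 0.0377). Mpo, the myeloperoxidase of primary granules, is named outside the naming rule of this report. It had busulfan library 3 barely above the other group, with 19.3, 18.8 and 9.76 FPKM against 768.1, 240.6 and 19.7 FPKM (limma adjusted p = 0.108). All 13 primary granule and all 19 secondary and tertiary granule genes had a negative difference, with medians of -3.09 and -2.20, and 1 and 2 of them fell, the last of these being the metalloprotease Adam8 (-0.63). Of 25 mature neutrophil genes the chemokine receptor Cxcr2 (-1.03) and the calcium-binding grancalcin Gca (-1.90) fell.

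Stefins of the A group, inhibitors of cathepsins that are abundant in mouse neutrophils, gave the largest differences among called genes. Stfa2 stood at 0.38, 0.34 and 0 FPKM with both agents, against 335.4, 159.4 and 6.54 FPKM with busulfan (-5.92, SE 1.09, limma adjusted p = 0.0396). BC100530 had 0.78, 1.61 and 0.19 FPKM against 787.7, 279.2 and 9.10 FPKM, and BC117090 had 0.55, 0.17 and 0.46 FPKM against 104.8, 102.2 and 3.57 FPKM. All 7 tested members were lower and 3 fell, with a median of -4.78. Of the 7, 6 reached 1 FPKM only with busulfan, among them the 3 that fell. The rule of entry largely set the direction of these 6, so the count is no support for it. These genes are close copies on chromosome 16, among which reads could not be traced, so the calls are not independent of each other. Stfa2 was the only gene called without the 3 libraries of highest acinar score, where the lone busulfan library left is assumed to vary like the other groups.

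Transcripts of the pancreas and of granulocytes had the same order among the busulfan libraries. Amy2a5, pancreatic amylase, stood at 0.73, 0.03 and 32.2 FPKM with both agents and at 19030, 1484 and 55.8 FPKM with busulfan. All 40 acinar genes tested were lower with both agents, with a median of -4.66, and none was called. Of the 39 that met the rule of entry, 15 reached 1 FPKM only with busulfan, so that rule largely set the direction of these 15. The 46 acinar genes in the table took 11.4% of the FPKM in busulfan library 1, 1.04% of library 2 and at most 0.0485% of the other 4. Primary granule scores were 3.18, 3.01 and 2.71 with both agents and 7.11, 5.78 and 3.41 with busulfan. Outside the busulfan group this order did not hold. Library 3 with both agents had the highest acinar and the lowest primary granule score of its group, and library 3 of L.J. alone, with its acinar score of 5.05, had a primary granule score of 3.19, beside 3.46 and 3.56 in libraries 1 and 2 of L.J. alone. ER chaperone scores were 5.46, 5.29 and 5.42 with both agents and 6.11, 5.77 and 5.72 with busulfan, where the gap held in busulfan library 3 too. Acinar cells are themselves rich in ER, and the median of the ER list was -0.15 once the acinar score entered the fit as a covariate and -0.36 once the 3 libraries of highest acinar score were left out, which were busulfan 1, busulfan 2 and L.J. 3. For primary granule genes the same medians were -1.27 and -0.37. The acinar regulator Bhlha15, also used by plasma cells, stood at 2.58, 2.30 and 2.60 FPKM with both agents and 12.3, 5.79 and 6.67 FPKM with busulfan (limma adjusted p = 0.0541). Without the 3 libraries the medians of the other lists described so far were 0.48 for PPAR targets, 0.60 for endothelial, 0.49 for matrix, -0.22 for translocon, -0.04 for ER to Golgi, -0.02 for PERK, -0.51 for eosinophil, -0.31 for secondary and tertiary granule, -0.13 for mature neutrophil and -1.72 for stefin A genes. On all libraries the medians were -0.10 for ER to Golgi, -0.23 for PERK and -1.55 for mature neutrophil genes. What part pancreatic RNA had in the differences of ER and granulocyte genes was not tested beyond these fits.

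**Figure D3:**
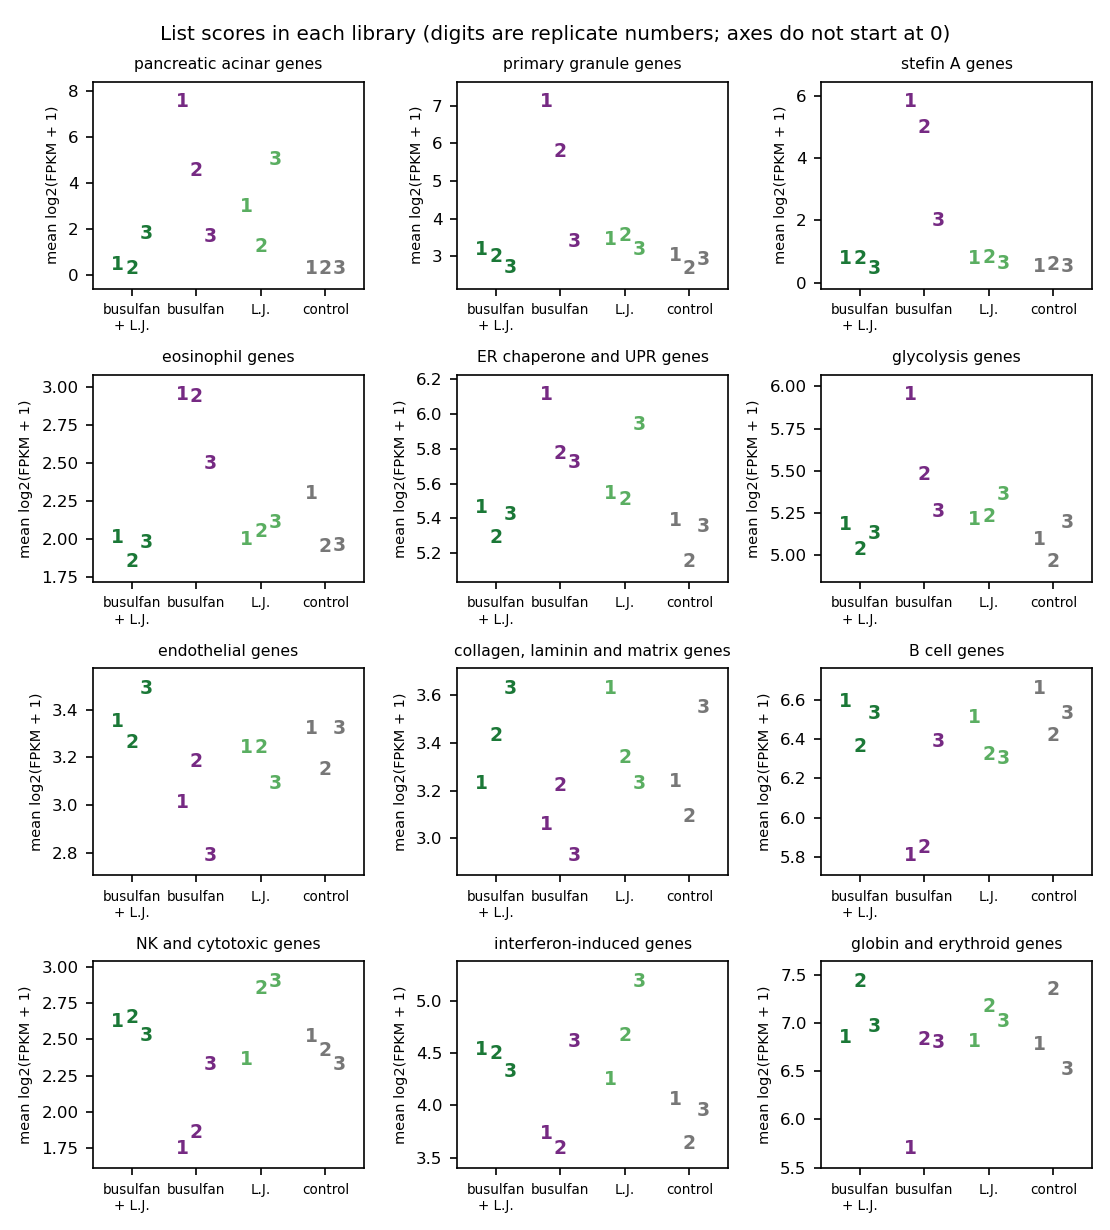
Score of 12 gene lists, the mean log2(FPKM + 1) of their genes, in each library, with the replicate number as the symbol and groups from left to right. In the acinar, granule, stefin, B cell, NK and interferon panels busulfan libraries 1 and 2 stand apart from busulfan 3, whereas in the endothelial panel busulfan 3 is the lowest at 2.79.

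Busulfan library 3 was the one most often nearest to the libraries with both agents in both directions of call. Among the 76 that fell, busulfan library 3 was the nearest of the busulfan libraries to the mean with both agents in 60.5%, and library 2 in 7.89%. Among the 142 that rose, library 3 was the nearest in 50%, beside 38.1% over all 12800 genes. Without busulfan library 3, 11 of 13 primary granule, 21 of 25 mature neutrophil and 33 of 40 acinar genes were called, and without busulfan library 2, 1, 0 and 0 were.

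B cell and NK genes were higher with both agents mainly against busulfan libraries 1 and 2. B cell genes rose in 4 of 38 and were positive in 36, with a median of 0.52. The calls were Fcrla, an intracellular Fc receptor relative of B cells, with 98.2, 72.9 and 84.9 FPKM with both agents and 35.6, 31.8 and 57.0 FPKM with busulfan (1.06, limma adjusted p = 0.0377), the antigen receptor chain Cd79b (1.03), the Notch regulator Dtx1 (0.78) and the sphingosine phosphate receptor S1pr3 (0.61), the last 2 linked to marginal zone B cells. Cd79a, the partner chain of Cd79b, stood at 1122, 872.8 and 1079 FPKM with both agents and at 649.2, 999.5 and 1694 FPKM with busulfan, so that the groups overlapped. The B cell score was 6.59, 6.36 and 6.53 with both agents and 5.81, 5.85 and 6.39 with busulfan, and the median fell to 0.14 without the 3 libraries of highest acinar score. Of 38 NK and cytotoxic genes 3 rose and 35 were positive, with a median of 0.66 that was 0.29 without those 3 libraries. These were the NK receptor Klrb1c, with 3.53, 3.51 and 2.10 FPKM against 0.85, 0.39 and 1.51 FPKM (1.10), Samd3 (1.13), and the chymase Cma1 (0.97), which is better known from mast cells. All 3 reached 1 FPKM only with both agents, so the rule of entry largely set their direction. T cell genes went either way in 31 genes, with a median of -0.03 and no call. The smallest p in that list was that of Ctla4, an inhibitory receptor, which had 4.44, 2.67 and 3.76 FPKM against 5.51, 5.80 and 5.66 FPKM (limma adjusted p = 0.0945).

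Interferon and erythroid genes were mostly higher without any call. Of 35 interferon-induced genes 34 were positive, with a median of 0.44 that became -0.18 without the 3 libraries of highest acinar score. Their scores were 4.54, 4.50 and 4.33 with both agents and 3.73, 3.59 and 4.61 with busulfan, where busulfan library 3 stood above all libraries with both agents. Of 50 globin and erythroid genes 46 were positive, with a median of 0.59, and it was 0.12 without busulfan library 1. Alas2, the first enzyme of haem synthesis in red cell precursors, stood at 380.4, 656.4 and 373.0 FPKM with both agents and 126.4, 272.0 and 289.3 FPKM with busulfan (limma adjusted p = 0.0976). Red pulp macrophage and iron genes had a median of 0.38, with 22 of 25 positive and the lectin Fcna as the only call (89.7, 78.9 and 102.5 FPKM against 41.5, 48.4 and 58.4 FPKM, 0.86).

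Enzymes of eicosanoid metabolism and of sugar breakdown also held calls. Ltc4s, leukotriene C4 synthase, rose to 8.81, 6.32 and 10.6 FPKM with both agents, against 4.07, 3.04 and 2.29 FPKM with busulfan (1.21, SE 0.20, limma adjusted p = 0.0372). Cbr2, a carbonyl reductase, rose to 25.6, 25.9 and 21.2 FPKM, against 7.27, 3.98 and 13.8 FPKM (1.57, SE 0.33, limma adjusted p = 0.0442). They were 2 of 21 tested eicosanoid genes, whose median was -0.05. Gapdh, a glycolytic enzyme often used as a reference transcript, fell to 798.0, 696.9 and 821.6 FPKM with both agents, against 1673, 1528 and 1312 FPKM with busulfan (-0.96, SE 0.16, limma adjusted p = 0.0372). It was the only call among 20 glycolysis genes, of which 15 were negative, with a median of -0.48 that was -0.15 without busulfan library 1. Gapdh has many processed pseudogenes, and reads shared with them cannot be traced. Among called genes in none of the lists, Hmgb2, a DNA-bending protein abundant in dividing cells, stood at 392.0, 464.5 and 380.8 FPKM against 778.1, 1002 and 684.9 FPKM (-0.98, limma adjusted p = 0.0377), and Hmgn5, a nucleosome-binding protein (-1.11), Hmga1 (-0.55) and Banf1, which bridges DNA and the nuclear envelope (-0.66), fell too. Chromatin proteins were not tested as a list.

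Lists tied to the known action of busulfan held few calls. So few calls are no trait of these lists, since only 1.66% of all genes tested were called. Among 28 p53 targets only Sesn1, a stress-induced regulator of growth signalling, rose (0.55), and the median of 0.02 changed sign under 3 of the scalings. None of 31 crosslink repair, 38 mitosis and 40 DNA replication genes was called, with medians of 0.05, -0.12 and 0.07. Of these, 14, 29 and 16 had a negative difference, and the mitosis median was 0.01 without busulfan library 2. Platelet (30 genes, -0.21), stem and progenitor (18, -0.09), oxidative phosphorylation (46, 0.05), ribosomal protein (53, 0.19), cholesterol synthesis (23, -0.25) and hepatocyte genes (20, 0.09) also held no call. In this order, 25, 12, 20, 15, 20 and 9 of them had a negative difference. The platelet median was 0.06 without busulfan library 1. Clock genes held 1 of 17, Arntl, the transcription factor BMAL1, with 9.52, 7.64 and 8.01 FPKM with both agents and 4.47, 4.03 and 6.30 FPKM with busulfan (0.68). In all 60 lists, 61 of the 1326 different genes tested were called, beside 1.66% of all 13138 genes tested. The lists were chosen with earlier results of these data known, so this count is no test of them. Of the lists, 29 held no call, 19 held only rises and 12 only falls.

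**Figure D4:**
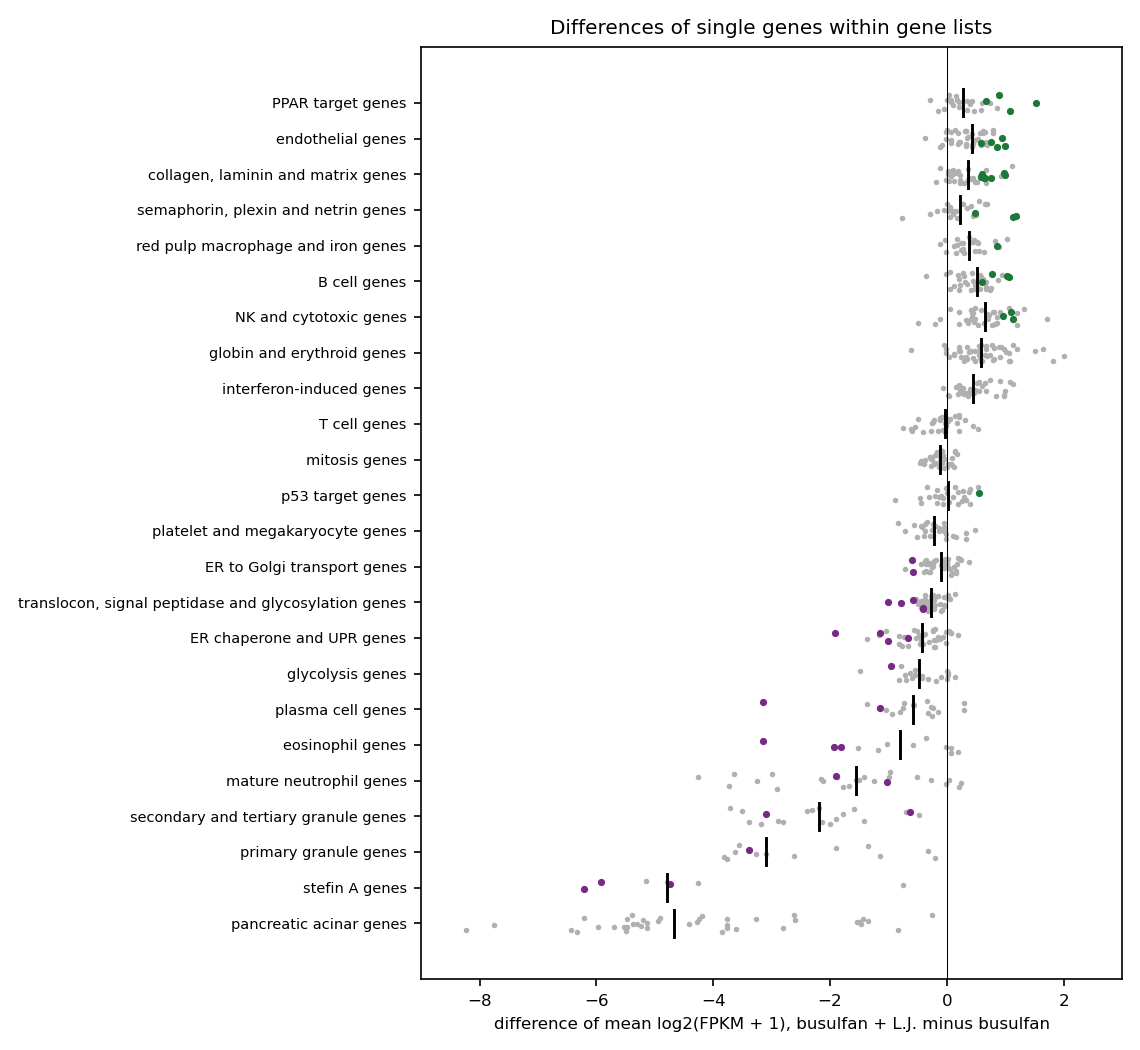
Each point is a tested gene of 1 of 24 lists, placed by its log2 difference between busulfan plus L.J. and busulfan alone, with a black bar at the list median and called genes in green (higher) or purple (lower). PPAR, endothelial and matrix genes lie mostly right of 0, ER genes left of it, and granule, stefin and acinar genes far to the left with few calls.

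The mean with L.J. alone lay between the means of the compared groups in 137 of the 142 genes that rose and 74 of the 76 that fell, and in 56.9% of all 12800. Angptl4 had 7.20, 8.50 and 8.00 FPKM with L.J. alone, against 4.21, 2.96 and 3.84 FPKM in controls, and Cpt1a averaged 22.8 ± 1.26 FPKM against 15.2 ± 1.24 FPKM (SD, n = 3 each). The test of whether the effect of L.J. differed with and without busulfan called 0 of 13138 genes in limma, while 1506 had an unadjusted p below 0.05. For Angptl4 this difference of effects was 0.59 (limma adjusted p = 0.261). The control mean did so in 137 of the 142 and 64 of the 76, and in 37.9% of all 12800. A gap chosen for its width leaves more room for the mean of another group, so these shares describe the called genes and are no test. Among the fallen genes 9 had a control mean below that with both agents, and 3 had one above that with busulfan.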

How the data were processed

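Spleen RNA of 12 libraries in 4 groups was sequenced, and the authors deposited 1 FPKM table of 21004 genes. Bowtie 0.12.2 and build mm10 appear, without a role, in the submitters' processing notes. How genes were counted, annotated and filtered, and whether strand was used, is not given in the sources used here. Columns were matched to samples by name, and 26 symbols that a spreadsheet had turned into dates were restored through RefSeq gene numbers. The depth is unknown: a search for whole-fragment steps in 94 sparse genes gave between 34.0% and 44.2% whole values within 0.1 of a whole number, so reads were not recovered and a count test was not made. FPKM sums ran from 511876 to 580364. FPKM is relative to the library total, so a few very abundant transcripts lower all others.

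The 13138 genes whose mean reached 1 FPKM in any group were fitted as log2(FPKM + 1), a scale that understates differences of low genes, by limma-trend with robust empirical Bayes (limma 3.58.1, R 4.3.3), 1 mean per group over all 12 libraries, Benjamini-Hochberg adjustment over all genes and a threshold of 0.05. Differences are busulfan plus L.J. minus busulfan. "Called", "rose" and "fell" mean past that threshold. The smallest exact permutation p for 3 against 3 libraries is 0.1. No list score could therefore pass 0.05, and the exact p of the scores are not given. The fit was tested on simulated data with independent noise and the same spread in every group. The busulfan libraries differ from that setting, so the simulation does not bear on how far the calls depend on them. Members, lists, tests and the naming rule were chosen with earlier results of these data known. The rule names the called genes with the largest differences and the smallest p, up to 4 called genes or otherwise 3 genes of smallest p per list, and fixed markers and ER and lipid genes. Most genes named outside it are marked in the text. Not marked are Mmrn2, Col1a2, Fbn1 and Srp19, which are further calls of their lists. Acadm, Acadl, Acadvl, Hadha, Alg12, the Xlr3 genes, Frs3 and Syt1 are not marked either. Tables and plots used Python 3.11.15, pandas 2.3.3, numpy 2.4.6 and matplotlib 3.10.9. Reads shared by near-identical genes (stefin, Ear, Klr and Hbb families, ribosomal proteins) and by overlapping genes cannot be traced. Protein sequences were not used here.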

Additional observations from a re-analysis of the deposited data

How the results depend on the processing

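The 218 calls, 142 higher and 76 lower, became 22 (14 and 8) with equal FPKM sums, 53 (23 and 30) with acinar genes left out and equal sums, 18 (13 and 5) without the filter and 1989 (1138 and 851) with library weights. They became 0 (0 and 0) with only the groups compared and with the acinar covariate, 1 (0 and 1) without the 3 libraries of highest acinar score, and 42 (16 and 26) with an absolute log2 difference of at least 1. Calls lower were 123 with quantile normalization and 176 with median of ratios scaling, where the total was 301 and 293. Leaving out 1 of the 12 libraries in turn gave 2 to 1354 calls, 2 to 680 higher and 0 to 674 lower. Under pseudocounts of 0.1 and 5, a mean of at least 5 FPKM, the filter on the compared groups and no robust option, the total stayed between 176 and 251. With the replicate number as a replicate block 55 genes were called, 34 higher and 21 lower, 49 of them shared with the 218. Same-numbered libraries of both groups deviated with correlations of 0.106, 0.325 and -0.122, so the numbers were not taken as pairs. None of the 77 called genes under the naming rule changed sign in any of these fits, while 27 of the other genes among its 201 had both signs across them. The depth is unknown, so what it limits could not be stated.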
